A study of Mus musculus with 6 samples.

Results

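The 10 genes described here encode the matrix coat of neurons called the perineuronal net, with the enzymes that build and modify its sugar chains. They are the core proteoglycan genes Acan, Bcan and Ncan, the link protein genes Hapln1 and Hapln4, the tenascin gene Tnr, the hyaluronan synthase genes Has2 and Has3, and the chondroitin sulfotransferase genes Chst3 and Chst11. They were taken by gene symbol from a table of 24419 genes, and all 10 were present. RNA-seq was done on cells of the peri-infarct cerebral cortex, the tissue around a stroke, of wild-type male C57BL/6N mice, for which the sources used here give no age. All animals underwent 60 min of occlusion of the middle cerebral artery. At 24, 48 and 72 h after onset they received intravenous injections of either vehicle or 15-HETrE, a hydroxylated fatty acid, of which 600 ng in 150 µL of phosphate-buffered saline was used. On day 4 the tissue was digested with pronase for 75 min and cells were sorted as neurons: positive for Thy1, and negative for ACSA2 (astrocytes), CD31 (endothelium), CD45 (leukocytes) and O4 (oligodendrocyte lineage).

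Perineuronal nets surround the soma and proximal dendrites of many cortical interneurons that contain parvalbumin, and of some other neurons. Hyaluronan made at the cell surface forms the backbone, lecticans (aggrecan, brevican, neurocan and versican) bind it through their N-terminal domain, link proteins clamp that bond, and tenascin-R joins the other ends of the lecticans to each other. The lecticans carry chondroitin sulfate chains, whose sulfation alters with age. Nets restrict plasticity in the adult cortex, and they are known to thin around cortical infarcts. Neurons are not the only makers of these parts: astrocytes and oligodendrocyte precursors are known sources of brevican and neurocan, and oligodendrocytes of tenascin-R.

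Each group held 3 libraries with 5405245 to 22558400 reads assigned to genes. They are called vehicle 1, vehicle 2 and vehicle combined, and 15-HETrE 1, 15-HETrE unnumbered and 15-HETrE combined, after the names of the data columns. The sources used here do not say what combined means, and nothing says that libraries came from separate animals, so p-values reflect only how these libraries vary, and that variation may be technical. Values are CPM, each gene's reads relative to all reads of the library, times a scaling factor. The labelled cell type was checked against marker lists. The 8 pan-neuronal markers summed to 1945 to 3322 CPM in vehicle and 3067 to 5979 CPM in 15-HETrE libraries, with 0 of them listed at 0 in any library. Markers of cells that the sort should leave out were also present: 8 mature oligodendrocyte genes summed to 14741 to 22226 CPM and 15822 to 30893 CPM, and 8 astrocyte genes to 844 to 8135 CPM and 1520 to 21172 CPM, respectively. Sums were smaller for 8 endothelial genes, at 100 to 223 CPM and 34.9 to 104 CPM. Those of 8 microglia and leukocyte genes were 18.6 to 104 CPM and 14.5 to 71.5 CPM. In each of these 2 lists, 2 genes were listed at 0 in some library. Lists hold different genes, so these sums do not give shares of cells. In these bulk samples, fewer cells of a type and less RNA per cell cannot be told apart.

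**Figure D1:**
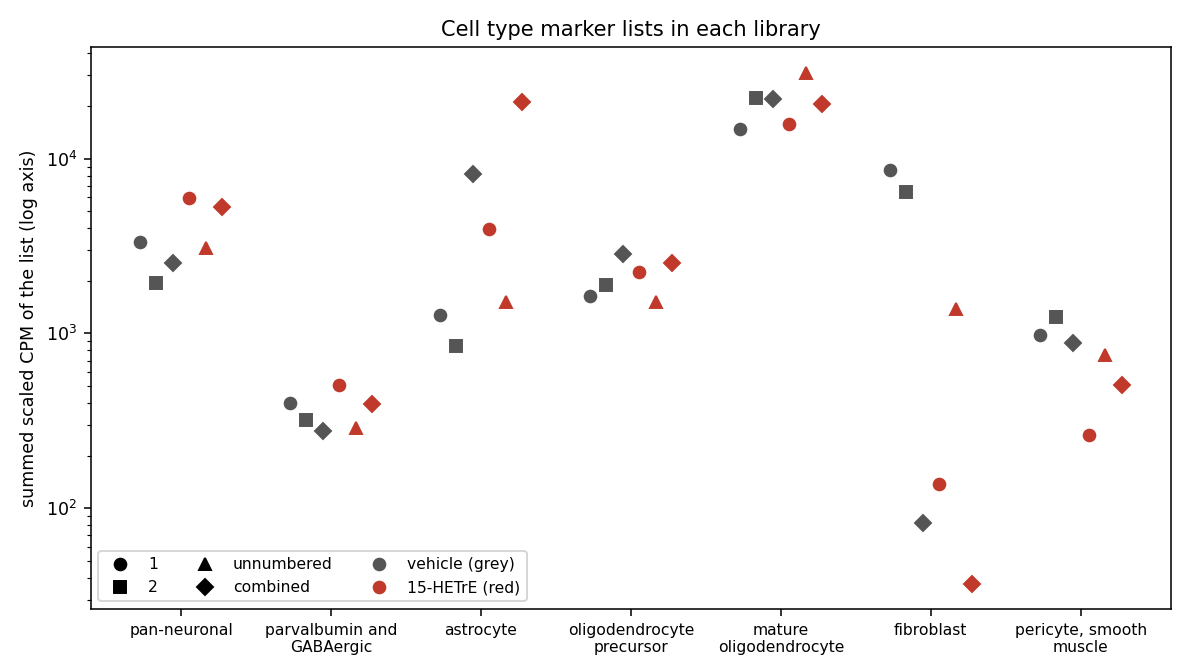
Summed scaled CPM (log axis) of 7 cell type marker lists in each of the 6 libraries, vehicle in grey and 15-HETrE in red, with a marker shape for each library name. The astrocyte list was highest in both libraries named combined (8135 and 21172 CPM), and the fibroblast list was highest in vehicle 1 and vehicle 2 (8561 and 6467 CPM).

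No net gene passed the test between 15-HETrE and vehicle. Of the 10 genes, 7 had a fold change above 0 and 3 below, with a median log2 fold change of 0.62. Over all 14523 genes tested, 51% had a fold change above 0 and the median was 0.02. Several marker lists lay on the same side: 7 of 8 pan-neuronal genes (median 0.81), 6 of 6 excitatory neuron genes (median 0.50), 5 of 7 interneuron genes (median 0.39) and 7 of 8 astrocyte genes (median 1.05) had a fold change above 0. So did 7 of 8 mature oligodendrocyte (median 0.16), 3 of 5 precursor (median 0.04) and 5 of 7 microglia and leukocyte genes (median 0.25). Other lists lay lower, with 2 of 8 endothelial (median -0.52), 1 of 8 pericyte and smooth muscle (median -1.13) and 0 of 8 fibroblast genes (median -2.56) above 0. The part of any of these cells in the net gene values was not tested. The count past an adjusted p of 0.05 was 0 of 10 in limma, where 0% of all genes passed, and 0 of 10 in edgeR and in DESeq2, where 0% and 1.14% of all genes passed. At an unadjusted p under 0.05 there were 0 net genes in limma (9.5% of all genes), 1 in edgeR (Has2; 8.48% of all genes) and 2 in DESeq2 (Hapln1 and Has2; 10.7% of all genes). With library weights, limma passed 3 of the 10 (Ncan, Hapln4 and Has2) and 16.7% of all genes, and without both libraries named combined 1 of the 10 (Has2) and 1.4% of all genes. The libraries of the groups overlapped for each of the 10 genes, whereas 15.2% of all genes tested showed no overlap.

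**Figure D2:**
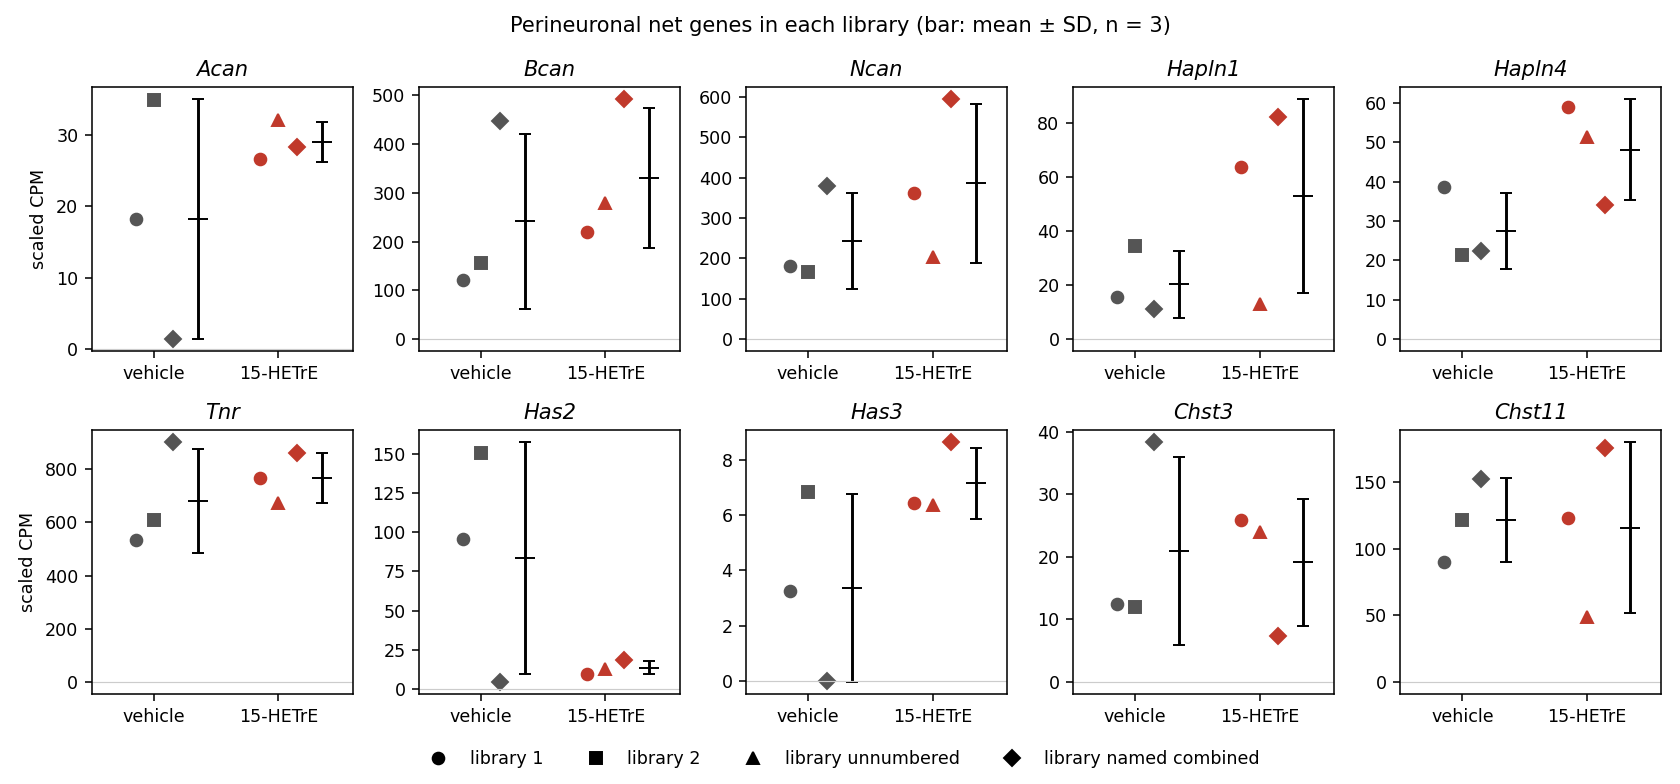
Scaled CPM of the 10 net genes in each library, grey for vehicle and red for 15-HETrE, with the mean ± SD of each group (n = 3) beside the points. Vehicle combined (grey diamond) is the lowest library for Acan, Hapln1, Has2 and Has3, and the ranges of the groups overlap for every gene.

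Among the core proteins, Acan encodes aggrecan, the lectican most closely tied to nets around neurons (chromosome 7, 79053483 to 79115099, GRCm38). Across vehicle 1, vehicle 2 and vehicle combined, in that order, it stood at 18.3, 34.9 and 1.44 CPM. Its level across 15-HETrE 1, unnumbered and combined was 26.6, 32.0 and 28.2 CPM, and values below keep this order. The 15-HETrE libraries lay close together inside the range of the first 2 vehicle libraries, and vehicle combined lay far below them with 8 reads. The means were 18.2 ± 16.7 CPM and 29.0 ± 2.75 CPM (SD, n = 3 per group), and the log2 fold change was 1.33 (SE 0.83, adjusted p 0.637, limma). That value rested on vehicle combined: without it the log2 fold change was 0.18 (adjusted p 0.874, limma), and without vehicle 2 it was 2.12 (adjusted p 0.912, limma). With all libraries, on the recovered reads, it was 0.66 in edgeR (adjusted p 0.857) and 0.68 in DESeq2 (adjusted p 0.855). Markers of parvalbumin and other GABAergic interneurons, summed over 7 genes, were also lowest in vehicle combined, with 398, 318 and 276 CPM across the vehicle libraries and 504, 286 and 394 CPM across the 15-HETrE ones in the same order. In vehicle combined Gad1, Slc32a1 and Lhx6 were the lowest of the 6 libraries at 69.2, 7.73 and 0.719 CPM, Gad2 was second lowest at 81.8 CPM, and Pvalb, which encodes parvalbumin, was highest at 30.6 CPM against 1.76 to 7.28 CPM elsewhere. Kcnc1 and Syt2, at 82.0 and 4.14 CPM in vehicle combined, were lowest in vehicle 2 (49.6 and 1.30 CPM). Over the 7 genes the mean log2 value was also lowest in vehicle 2 (3.97, against 4.30 in vehicle combined). Acan was highest in vehicle 2. None of the 7 genes was listed at 0 in any library, and the part of these cells in the Acan values was not tested.

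Bcan encodes brevican, a small brain lectican that exists in secreted and membrane-anchored forms (chromosome 3, 87987531 to 88000230). Its values were 122, 155 and 448 CPM across the vehicle libraries and 219, 278 and 492 CPM across the 15-HETrE ones. Both libraries named combined were highest within their group, and vehicle combined lay above 15-HETrE 1 and unnumbered. The log2 fold change was 0.60 (SE 0.47, adjusted p 0.705, limma). Without vehicle combined it was 1.17 (adjusted p 0.164, limma), whereas it was 0.23 without vehicle 1 (adjusted p 0.905, limma) and 0.27 without 15-HETrE combined (adjusted p 0.913, limma).

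Ncan encodes neurocan, a lectican that is abundant in the developing brain and increases after injury (chromosome 8, 70093085 to 70120873). It stood at 182, 166 and 380 CPM across the vehicle libraries and 361, 203 and 594 CPM across the 15-HETrE ones. As for Bcan, the combined libraries were the highest of each group, and vehicle combined lay above 2 of the 15-HETrE libraries. The group means of 242 ± 119 and 386 ± 196 CPM differed by 0.64 on the log2 scale (SE 0.42, adjusted p 0.655, limma), and 1.02 without vehicle combined (adjusted p 0.292, limma). The difference was 1.04 without 15-HETrE unnumbered (adjusted p 0.458, limma), but 0.42 without vehicle 2 (adjusted p 0.922, limma) and 0.27 without 15-HETrE combined (adjusted p 0.895, limma). The astrocyte list, at 8135 and 21172 CPM in the combined libraries against 844 to 3937 CPM in the other 4, and the precursor list, at 2844 and 2515 CPM against 1515 to 2243 CPM, were highest in the same libraries, with 0 genes of either list at 0 in any library. Of the precursor genes, Pdgfra, Cspg4 and C1ql1 were highest in both combined libraries, and Gpr17 and Neu4 were not. Gpr17 in vehicle combined (763 CPM) lay below 15-HETrE 1 and unnumbered (797 and 787 CPM). Neu4 in 15-HETrE combined (84.2 CPM) also lay below them (111 and 113 CPM). The part of astrocytes and precursors in the Bcan and Ncan values was not tested. Of the 45 pairs among the 10 genes, Bcan and Ncan were the second closest in profile over the 6 libraries, with a root mean square difference of 0.42 on the log2 scale after each gene was centred on its mean. Acan and Has3 were the closest at 0.34, both being lowest in vehicle combined.

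The stretches of 250 bases before the start sites of the 3 core protein genes are shown because these genes serve the same structure, while Acan differed in profile from Bcan and Ncan (root mean square differences of 1.79 and 1.66). They come from RefSeq on GRCm38.p6, which held such a stretch for 7 of the 10 genes, and are written 5′ to 3′ on the strand of the gene. Acan lies at chr7:79052976-79053225 on the plus strand, Bcan at chr3:88000357-88000606 on the minus strand and Ncan at chr8:70120845-70121094 on the minus strand. The start sites are those of RefSeq and differ from the gene positions given above, which come from GENCODE. The Ncan stretch thus lies partly within the gene as given above, and those of Acan and Bcan do not reach theirs. Capitals mark matches on either strand to any of 6 short motifs. The TATA element was searched as TATAA, the binding sequence of NF-Y as CCAAT, and the GC box as GGGCGG. NRF1 was searched as GCGCATGC, the cyclic AMP response element as TGACGTCA, and AP-1 as TGANTCA.
Acan: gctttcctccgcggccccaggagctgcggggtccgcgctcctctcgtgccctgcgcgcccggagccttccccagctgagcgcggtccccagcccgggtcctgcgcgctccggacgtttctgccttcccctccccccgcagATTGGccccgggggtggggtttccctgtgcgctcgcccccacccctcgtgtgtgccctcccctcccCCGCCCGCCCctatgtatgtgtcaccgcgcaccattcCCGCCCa
Bcan: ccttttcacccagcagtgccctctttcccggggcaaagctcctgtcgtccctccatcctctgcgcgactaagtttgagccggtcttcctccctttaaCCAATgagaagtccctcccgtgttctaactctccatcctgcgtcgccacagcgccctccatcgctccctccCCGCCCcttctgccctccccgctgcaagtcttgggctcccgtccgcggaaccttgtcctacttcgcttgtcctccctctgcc
Ncan: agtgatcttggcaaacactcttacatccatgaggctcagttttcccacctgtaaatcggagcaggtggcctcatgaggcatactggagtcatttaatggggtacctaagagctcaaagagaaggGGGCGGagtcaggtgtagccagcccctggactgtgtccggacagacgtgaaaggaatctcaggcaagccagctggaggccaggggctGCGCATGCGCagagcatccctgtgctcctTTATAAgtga

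The Acan stretch was rich in G and C, at 74.4%, with 26 CpG sites, against a median of 52.4% and 6 CpG sites over 32851 promoters. Those of Bcan and Ncan held 62.0% and 54.4% with 16 and 6 CpG sites. Acan had a CCAAT box and 3 matches to the GC box, of which the first 2 overlapped, and Bcan had one of each. Ncan had a GC box, a TATA match on each strand that overlapped each other, and a pair of overlapping NRF1 matches, the first starting 39 bases before the start site. Among all promoters, 22.8% held TATAA, 33.8% CCAAT, 32.7% GGGCGG, 2.26% GCGCATGC, 1.55% TGACGTCA and 6.75% TGANTCA. These are matches of letters and say nothing of binding.

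Versican, the fourth lectican, is made by precursor cells and fibroblasts among others. Its gene Vcan stood at 875, 1127 and 852 CPM across the vehicle libraries and 789, 652 and 759 CPM across the 15-HETrE ones. The groups did not overlap, as for 8.32% of all genes in the lower direction, but the difference did not pass (log2 fold change -0.37, SE 0.26, adjusted p 0.679, limma). To compare genes, CPM was divided by the length of all exons in kb. On that scale Vcan made up 51.2%, 54.2% and 26.5% of the lectican transcripts in the vehicle libraries and 33.6%, 30.8% and 20.2% in the 15-HETrE libraries. Acan was the smallest share in every library, between 0.0867% and 3.25%. Bcan held 25.3% to 49.6% in vehicle and 33.2% to 46.9% in 15-HETrE libraries, and Ncan 16.0% to 23.8% and 19.4% to 31.8%. The shares of all 4 lecticans overlapped between groups, and vehicle combined had the composition of the 15-HETrE libraries for Vcan and Bcan more than that of vehicle 1 and vehicle 2.

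**Figure D3:**
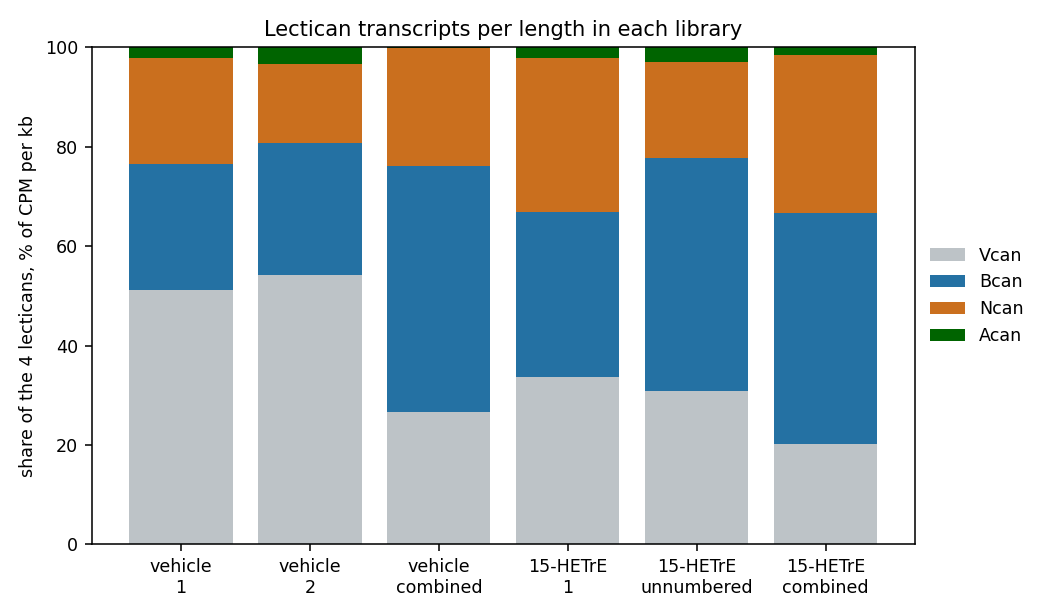
Share of each lectican gene in the summed CPM per kb of exon of the 4 lecticans, in percent, 1 stacked bar for each library. Vcan takes over 50% in vehicle 1 and vehicle 2 (51.2% and 54.2%) and 20.2% to 33.6% in the other 4 libraries.

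Link proteins hold the lecticans on hyaluronan. Hapln1, a link protein of nets and of cartilage (chromosome 13, 89539796 to 89611652), stood at 15.4, 34.4 and 11.1 CPM across the vehicle libraries and 63.5, 12.9 and 82.2 CPM across the 15-HETrE ones. 15-HETrE 1 and combined lay above all vehicle libraries, and 15-HETrE unnumbered lay below 2 of them. Its means were 20.3 ± 12.4 and 52.9 ± 35.8 CPM. The log2 fold change was 1.13 (SE 0.67, adjusted p 0.618, limma), and 1.93 without 15-HETrE unnumbered (adjusted p 0.336, limma). It was 0.64 without 15-HETrE combined (adjusted p 0.858, limma) and 0.31 without both combined libraries (adjusted p 0.873, limma).

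Hapln4, the brain link protein that pairs with brevican (chromosome 8, 70083457 to 70090862), had the smallest p of the 10 genes in limma with all libraries unweighted, but not in edgeR or DESeq2. It stood at 38.6, 21.4 and 22.3 CPM across the vehicle libraries and 59.1, 51.3 and 34.1 CPM across the 15-HETrE ones, so that only vehicle 1 and 15-HETrE combined crossed. The means of 27.4 ± 9.68 and 48.2 ± 12.8 CPM differed by 0.80 on the log2 scale (SE 0.37, unadjusted p 0.0539, adjusted p 0.538, limma). Leaving out each library in turn kept this value between 0.64 and 1.07. It was 1.01 within the libraries of the first name prefix (vehicle 1, vehicle 2 and 15-HETrE 1) and 0.59 within the combined pair.

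Within a library the balance of Hapln1 to Hapln4 varied widely. On a log2 scale the ratio was -1.27, 0.66 and -0.94 in vehicle and 0.10, -1.91 and 1.25 in 15-HETrE libraries. The groups differed by 0.33 (exact two-sided permutation p 0.9, Benjamini-Hochberg adjusted p 1 over the 2 ratios tested), where the smallest p that 3 against 3 allows is 0.1. Each link protein gene lies beside a lectican gene. Hapln4 is 2222 bases from Ncan and Hapln1 43659 bases from Vcan. Hapln2, the link protein of nodes of Ranvier, is 21519 bases from Bcan, and Hapln3 is 2 bases from Acan. The fold changes of the neighbours had the same sign for Hapln4 and Ncan (0.80 and 0.64) and opposite signs for Hapln1 and Vcan (1.13 and -0.37), Hapln2 and Bcan (-0.08 and 0.60) and Hapln3 and Acan (-0.61 and 1.33), with none past the test. Hapln2 had 97.4 ± 38.2 and 92.3 ± 33.5 CPM. Hapln3 was low, at 2.76, 2.61 and 0.540 CPM across the vehicle libraries and 3.60, 0 and 0.270 CPM across the 15-HETrE ones. Vehicle combined and 15-HETrE combined held 3 and 2 reads of it.

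Tnr, which encodes tenascin-R, the crosslinker of the net (chromosome 1, 159523769 to 159931729), was the most even of the 10 genes. Its values were 533, 608 and 900 CPM across the vehicle libraries and 768, 671 and 860 CPM across the 15-HETrE ones. The highest library was 1.69 times the lowest, against 2.76 to 33.4 times for the other genes with reads in every library. The log2 fold change was 0.20 (SE 0.28, adjusted p 0.840, limma), between 0.04 and 0.42 on leaving out each library, and within the combined pair the difference was -0.07. Tnc, which encodes the related tenascin-C of injured tissue, stood at 672, 906 and 151 CPM across the vehicle libraries and 29.3, 114 and 15.9 CPM across the 15-HETrE ones. It had no overlap, and a log2 fold change of -3.54 that did not pass (SE 0.75, adjusted p 0.334, limma).

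The hyaluronan synthases make the backbone. Has2, the main synthase of many mesenchymal cells (chromosome 15, 56665627 to 56694539), stood at 95.6, 150 and 4.50 CPM across the vehicle libraries and 9.92, 12.7 and 18.2 CPM across the 15-HETrE ones. Vehicle 1 and vehicle 2 stood far above the other 4 libraries, and vehicle combined was the lowest of all 6, with 25 reads against 2046 and 3343. The means were 83.5 ± 73.7 and 13.6 ± 4.24 CPM, and the log2 fold change was -1.60 (SE 1.01, adjusted p 0.641, limma). On the recovered reads it was -2.62 in edgeR (adjusted p 0.505) and -2.59 in DESeq2 (adjusted p 0.0711). Without vehicle combined it was -3.09 and passed (adjusted p 0.0165, limma), where 0.757% of all genes did. Without vehicle 2 it was -0.70 (adjusted p 0.925, limma) and without vehicle 1 it was -1.02 (adjusted p 0.799, limma). Within the first name prefix the difference was -3.47, and within the combined pair it had the opposite sign, 1.81.

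Has2 and the summed fibroblast markers were both far lower in vehicle combined than in the other vehicle libraries. Those libraries ranked in opposite order for Has2 and for the sum of these markers. All 8 had a fold change below 0, and their sum was 8561, 6467 and 82.9 CPM across the vehicle libraries and 138, 1383 and 37.0 CPM across the 15-HETrE ones. The marker Postn was listed at 0 in vehicle combined. Among the 15-HETrE libraries the order also differed, since 15-HETrE unnumbered had the most fibroblast transcripts and 15-HETrE combined the most Has2. The part of fibroblasts in the Has2 values was not tested. Exons of Has2 overlap those of its antisense gene Has2os over 182 bases.

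Has3, a synthase active in the brain (chromosome 8, 106870242 to 106884566), was the lowest of the 10 genes. It stood at 3.27, 6.84 and 0 CPM in vehicle, where a count of 0 in vehicle combined allows up to 0.540 CPM, and at 6.46, 6.39 and 8.65 CPM in 15-HETrE libraries. Vehicle 2 lay within the 15-HETrE range. The log2 fold change was 1.33 (SE 0.80, adjusted p 0.627, limma) and depended on the library at 0. It was 0.49 without that library, and 0.62 or 2.44 with a pseudocount of 5 or 0.1 (adjusted p 0.749, 0.614 and 0.657, limma). On the recovered reads it was 1.07 in edgeR (adjusted p 0.853) and 1.09 in DESeq2 (adjusted p 0.843). Exons of Has3 and of Chtf8, on the opposite strand, overlap by 352 bases, and the sources used here do not say whether the counting used strand.

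**Figure D4:**
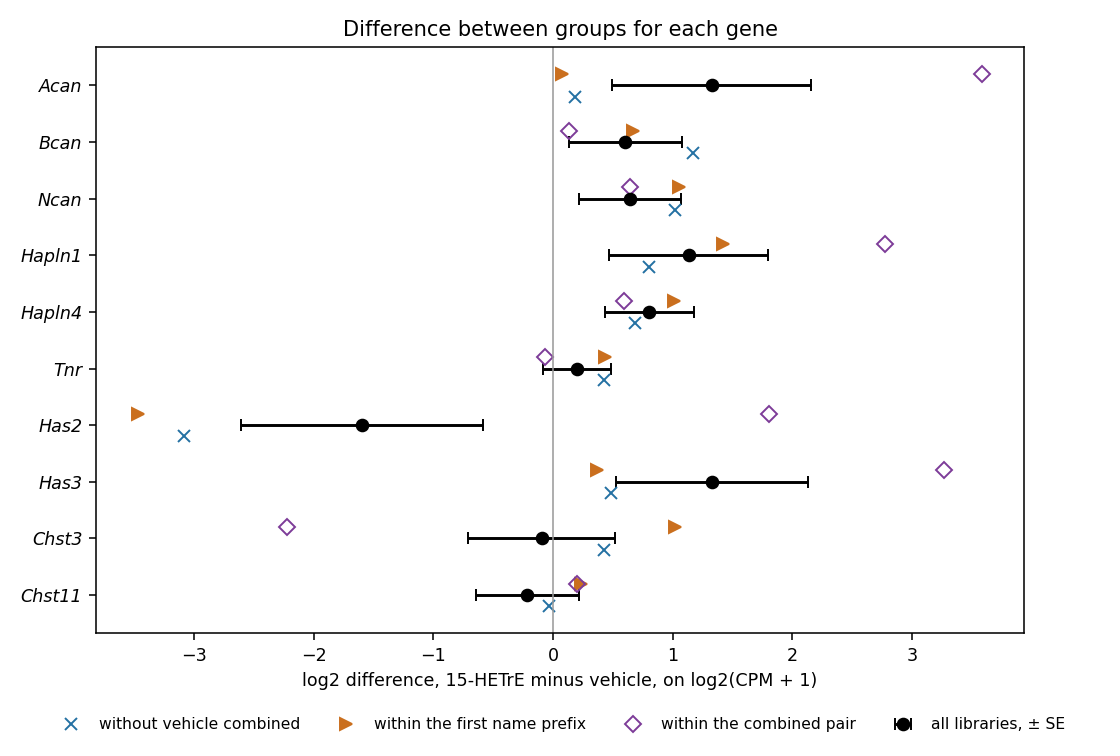
Log2 difference of each net gene, 15-HETrE minus vehicle on log2(CPM + 1), with SE for all libraries (black), without vehicle combined (blue crosses), within the first name prefix (orange) and within the combined pair (open diamonds). Has2 lies at -3.47 within the first prefix and at 1.81 within the combined pair, and Chst3 at 1.02 and -2.22.

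The sulfotransferases set the sulfation pattern of the chondroitin chains. Chst11 adds sulfate at the 4-O position (chromosome 10, 82985498 to 83195900), the pattern that dominates in the adult brain. It stood at 89.8, 121 and 153 CPM across the vehicle libraries and 123, 48.5 and 176 CPM across the 15-HETrE ones, so that the lowest and the highest library both belonged to 15-HETrE. The log2 fold change was -0.22 (SE 0.43, adjusted p 0.893, limma), and 0.31 without 15-HETrE unnumbered (adjusted p 0.751, limma) or -0.61 without 15-HETrE combined (adjusted p 0.807, limma). Chst3 adds sulfate at the 6-O position, which is more common in the young brain (chromosome 10, 60181532 to 60219260). It stood at 12.5, 12.1 and 38.3 CPM across the vehicle libraries and 25.9, 24.0 and 7.43 CPM across the 15-HETrE ones. Both combined libraries went against the rest of their group. The log2 fold change was accordingly near 0, at -0.10 (SE 0.61, adjusted p 0.966, limma), with differences of 1.02 within the first name prefix and -2.22 within the combined pair.

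The ratio of Chst11 to Chst3 transcripts was above 1 in all 6 libraries. It was 6.71, 9.36 and 3.91 in vehicle and 4.60, 1.98 and 21.0 in 15-HETrE libraries, computed on CPM + 1 and not corrected for length. The mean log2 ratio was 2.65 ± 0.64 in vehicle and 2.53 ± 1.72 in 15-HETrE libraries, a difference of -0.12 (exact two-sided permutation p 1, adjusted p 1 over the 2 ratios). The spread within the 15-HETrE group was much larger than the difference.

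Levels per kb of exon, averaged over the 6 libraries, placed Bcan first at 70.3 CPM per kb, then Tnr at 56.2, Ncan at 43.7 and Chst11 at 21.4 CPM per kb. Has2 followed at 11.5, Hapln4 at 9.63, Hapln1 at 6.20, Acan at 3.16, Chst3 at 3.09 and Has3 at 0.826 CPM per kb. The mean of Has2 was 19.7 ± 17.4 CPM per kb in vehicle and 3.22 ± 1.00 CPM per kb in 15-HETrE libraries. In 15-HETrE libraries its mean lay below those of Hapln4 (12.3), Hapln1 (8.96) and Acan (3.88 CPM per kb). Across the vehicle libraries Has2 stood at 22.6, 35.5 and 1.06 CPM per kb. Vehicle combined thus lay below all 15-HETrE libraries (2.34 to 4.31 CPM per kb). The vehicle mean of Acan lay below that of Chst3, at 2.44 against 3.23 CPM per kb, through vehicle combined (0.193 against 5.90). In vehicle 1 and vehicle 2 Acan was the higher, at 2.45 and 4.67 against 1.93 and 1.86 CPM per kb. The ranges over the libraries overlapped for all 9 pairs of neighbours in this order, for example for Bcan and Tnr (29.9 to 121 and 41.4 to 70.0 CPM per kb) and for Acan and Chst3 (0.193 to 4.67 and 1.14 to 5.90 CPM per kb). The link protein and aggrecan transcripts thus stood below brevican and neurocan on this scale.

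For each gene the 3 genes with the nearest profile over the 6 libraries were taken, out of 9892 or 9893 genes whose mean reached 10 CPM. Hapln4 lay nearest to Scn8a, a sodium channel gene (root mean square difference 0.05 on the log2 scale), then Cacna1e (0.10), a calcium channel gene, and Mical2 (0.10). Ncan lay nearest to Parp11 (0.09), Ntrk2 (0.11), the gene of the BDNF receptor, and Pcdh20 (0.11). Bcan lay nearest to Fam102a (0.11), Sbk1 (0.11) and Npas3 (0.12), and Tnr to Adra1a (0.06), Bahcc1 (0.07) and Tmem106b (0.08). For Chst11 the nearest were Ptar1 (0.13), Pdgfra (0.15), the receptor gene that marks oligodendrocyte precursors, and Ndufab1 (0.16). Has2 lay nearest to Ccbe1 (0.34), Kirrel (0.37) and Stc1 (0.38), and Hapln1 had the most distant neighbours, Zxdb (0.45), Dusp28 (0.49) and Dlx6os1 (0.51). The nearest to Acan were Nfe2l3, Gipc1 and Pisd (0.17 to 0.25), to Has3 Cd3eap, Zfp101 and Asf1a (0.15 to 0.22), and to Chst3 Sfi1, Wdr73 and Prps2 (0.22 to 0.23). With 6 libraries, many genes share a profile, and these distances describe the libraries only.

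The other genes of the pathway were read from lists of 56 genes, of which 54 passed the filter. Of these, 22 had a fold change above 0 and 32 below, with a median of -0.16, and 0 passed in limma. At an unadjusted p under 0.05, 1 was higher and 6 were lower, against 4.27% and 5.23% of all genes. The groups did not overlap for 1 higher and 8 lower genes, against 6.84% and 8.32% of all genes.

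Of 6 chain polymerising enzymes, 3 had a fold change below 0, and 2 of them had no overlap. Chsy1, a chondroitin synthase, stood at 58.0, 54.7 and 48.7 CPM across the vehicle libraries and 21.4, 28.2 and 30.8 CPM across the 15-HETrE ones (log2 fold change -0.99, SE 0.31, adjusted p 0.422, limma). Csgalnact1, which starts the chains, stood at 29.3 ± 4.30 and 15.9 ± 1.96 CPM (log2 fold change -0.84, adjusted p 0.520, limma). Chsy1 and Csgalnact1 were lower both within the first name prefix (-1.35 and -0.58) and within the combined pair (-0.64 and -1.18), a sign that the lack of overlap fixes. Chsy3, the third by p, had a log2 fold change of 0.36. The 6 linker enzymes had 5 fold changes above 0, with a median of 0.28, and the 3 with the smallest p were B3gat3 at 1.21, Xylt1 at 0.39 and Xylt2, the gene below 0, at -0.20.

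Of the 10 further sulfation and epimerase genes that passed the filter, 6 had a fold change below 0 and 4 above. Dse, the epimerase that turns chondroitin into dermatan sulfate, stood at 45.1, 38.4 and 14.6 CPM across the vehicle libraries and 5.92, 7.04 and 13.1 CPM across the 15-HETrE ones. Its log2 fold change of -1.72 did not pass (adjusted p 0.425, limma). Chst12, another 4-O sulfotransferase, had 17.0 ± 1.66 and 9.62 ± 5.29 CPM, and Chst15, which makes doubly sulfated units, had 49.2 ± 26.3 and 28.3 ± 4.21 CPM, with overlap for Chst15 only. Of 8 genes of hyaluronan metabolism and binding, 7 had a fold change below 0, with a median of -0.66. Cd44, the main hyaluronan receptor, stood at 99.6, 146 and 181 CPM across the vehicle libraries and 76.8, 61.3 and 3.24 CPM across the 15-HETrE ones, without overlap (log2 fold change -2.34, adjusted p 0.482, limma). Libraries overlapped for Cemip, of hyaluronan breakdown, at a log2 fold change of -1.17, and for Hmmr, which encodes a hyaluronan receptor of dividing cells, at -1.74.

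Of the other neural proteoglycans, Ptprz1 encodes a receptor phosphatase whose secreted form is phosphacan. Like Bcan, it was highest in the combined libraries, at 2092 and 2356 CPM, and stood at 619 to 1443 CPM in the other 4. Unlike Bcan, it was higher in 15-HETrE 1 than in 15-HETrE unnumbered (1443 and 788 CPM). Its log2 fold change was 0.51, and that of Cspg4, the NG2 proteoglycan of precursors and pericytes, was -0.36. Of 10 genes of breakdown, which encode proteases and a sulfatase, 9 had a fold change below 0 and the median was -0.95. Adamts1, which cleaves lecticans, stood at 193, 280 and 322 CPM across the vehicle libraries and 106, 190 and 121 CPM across the 15-HETrE ones, without overlap (log2 fold change -0.94, adjusted p 0.425, limma). Mmp2 and Mmp9 had log2 fold changes of -0.86 and -2.32, and Mmp9 was at 0 in vehicle combined. Pericyte and smooth muscle markers, in which 7 of 8 genes had a fold change below 0, summed to 876 to 1245 CPM in vehicle and 264 to 756 CPM in 15-HETrE libraries, and 0 of the 8 were listed at 0 in any library. The part of these cells in the Adamts1, Cd44 and Dse values was not tested.

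Among 7 receptors and binding partners that passed the filter, 6 had a fold change above 0. Nptx2, a secreted pentraxin that gathers AMPA receptors on parvalbumin interneurons, was the gene without overlap on the higher side, at 11.4, 13.0 and 7.73 CPM across the vehicle libraries and 30.0, 18.0 and 28.2 CPM across the 15-HETrE ones (log2 fold change 1.17, SE 0.44, adjusted p 0.480, limma). The Nogo receptor genes Rtn4rl1 and Rtn4r, whose products also bind chondroitin sulfate, overlapped between groups, at log2 fold changes of 1.08 and 0.65. Otx2, a homeoprotein that nets capture, was at 0 in all 6 libraries.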

How the data were processed

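The authors deposited a table of scaled CPM, a signal that divides each gene's reads by the library total and a size factor. The submitters' processing notes name the mm10 genome and edgeR, featureCounts, HISAT2 and Trimmomatic; the sources used here give no versions, settings, annotation or use of strand. The implied factors equal those of edgeR's TMM method on the recovered reads. Every value was a whole multiple of the smallest value above 0 in its column (100% within 1e-04 reads), so reads were recovered; 5405245 to 22558400 fell on genes. A count of 0 allows up to 3 reads, for counting error only. The number of other columns was 0.

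The 14523 genes whose mean reached 1 CPM were fitted with limma 3.58.1 in R 4.3.3 on log2(CPM + 1), pseudocount 1, with group as the only term; p-values are two-sided, with Benjamini-Hochberg adjustment across these genes and a threshold of 0.05. Fold changes are 15-HETrE minus vehicle, and those of low genes depend on the pseudocount. The fits were written for CPM and used unchanged on the scaled CPM. edgeR 4.0.16 and DESeq2 1.42.0 were run on the recovered reads as alternatives. The fits were tested on simulated data. The 2 ratios were compared by exact permutation tests. Libraries were grouped by column names; the name prefixes give the within-prefix differences, and the second prefix held 1 library of 1 group.

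The 10 genes and all lists were chosen with earlier results of these data known. Besides the 10, named genes are the 3 of smallest p in each pathway list, list genes of the highest mean, and the nearest profiles. Gad1, Gad2, Lhx6, Slc32a1, Pvalb, Kcnc1, Syt2, C1ql1, Neu4, Postn, Otx2 and the genes of exon overlap were named after their values were seen. GENCODE M21 (GRCm38, which is mm10) gave gene positions and exon lengths. A listed symbol absent from the table, Cemip2, was read under its older symbol Tmem2 from RefSeq.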

Additional observations from a re-analysis of the deposited data

How the results depend on the processing

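The count of net genes past the test was 0 in 15 of 18 alternatives. It was 3 with library weights (Ncan at 1.01 and Hapln4 at 1.05 higher, Has2 at -3.29 lower; adjusted p 0.00952, 0.0208 and 0.000626, limma), where 16.7% of all genes passed, and 1 (Has2) without both libraries named combined, an alternative chosen after seeing the data, where 1.4% did. Leaving out each library gave 0 to 1, the 1 being Has2 without vehicle combined. The count over all genes was 0 in 13 alternatives, 2425 with library weights, 165 in DESeq2, 8 with the column name prefix as a batch term (added after seeing the data), 204 without both combined libraries, and 0 to 110 on leaving out each library, the 110 being without vehicle combined. Of the 10 net genes, 8 kept the sign of their fold change in all 18 alternatives. Chst3, at -0.10, turned to 0.78 with library weights, 0.43 without vehicle combined, 0.44 without 15-HETrE combined and 0.97 without both combined libraries. Chst11, at -0.22, turned to 0.036 with library weights, 0.31 without 15-HETrE unnumbered and 0.22 with the prefix term. The second prefix held only 15-HETrE unnumbered, so the prefix term also takes this library out of the comparison of groups. On leaving out each library, Chst3 ranged from -0.39 to 0.44 and Chst11 from -0.61 to 0.31. Leaving out each library gave differences of -1.05 to 0.65 for the Chst11 to Chst3 ratio (0.17 without vehicle 2, 0.04 without 15-HETrE 1) and -0.39 to 1.19 for the Hapln1 to Hapln4 ratio (-0.05 without vehicle 1). The cause of these turns was not tested. No paired analysis was possible because the columns of the groups share fewer than 2 replicate numbers. In vehicle combined, the shallowest library, 1 read was worth 0.180 CPM. Its counts of 8 reads for Acan and 0 for Has3 (at most 0.540 CPM) are imprecise. The next lowest levels of these genes were 18.3 and 3.27 CPM. The part of depth in the low values of vehicle combined was not tested.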
